A study of Mus musculus with 10 samples.

Results

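The genes described here are 10 mouse genes that build, load and switch on MHC class II molecules: H2-Aa, H2-Ab1, H2-Eb1, H2-DMa, H2-DMb1, H2-DMb2, H2-Oa, Cd74, Ciita and Ctss. They were taken as the rows whose Ensembl IDs carry these symbols in the GENCODE M21 annotation. All 10 were found among the 18047 genes of the table, and all 10 passed the minimum mean of 10 normalized counts. The samples were whole tumours grown for 3 weeks in BALB/c mice from 4T1, a mammary carcinoma line of that strain, cut as frozen sections before total RNA was taken. In the 5 KO libraries the implanted 4T1 cells carried a knockout of 1 gene, and in the 5 WT libraries they carried none. The knockout is in the implanted carcinoma cells, so the host's own cells in these tumours do not carry it, and the labels do not say whether the KO line was 1 clone. All 10 libraries carry the same batch label. The labels name no animal for any library, so a p-value here reflects only how far the libraries of a group spread. The libraries held 8609756 to 16066866 reads in KO and 11772430 to 19934428 reads in WT, and limits drawn from reads cover counting error only. The library names of WT1 to WT4 and of KO5 carry an unexplained prefix, RESUB. WT2 and WT5 share the library number 170, and whether they came from the same tumour is not stated. RNA of skin (Krt1, Flg2) was found in WT2, WT3 and WT5, and the other libraries were at 0 for both genes. Krt10 and Krt5 were also highest in WT2, WT3 and WT5. Elsewhere they were not absent, with Krt10 up to 33.2 normalized counts (WT1) and Krt5 up to 83.3 (WT4). Skeletal muscle markers (Acta1, Ckm, Myh1) summed to 8.44 to 2723 normalized counts in KO and 32.0 to 53085 in WT, the highest in WT2, and fibroblast markers to 19890 to 39491 in KO and 25938 to 74587 in WT, the highest in WT4. Without WT2 the log2 difference of H2-Aa was 0.72 and without WT4 0.65 (limma adjusted p = 0.365 and 0.630), and the part of these cells in the results was not tested.

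MHC class II molecules show peptides from endocytosed proteins to CD4 T cells, and are made mainly by dendritic cells, macrophages and B cells, and by some carcinoma cells exposed to interferon gamma. An alpha and a beta chain pair in the endoplasmic reticulum with the invariant chain, which blocks the groove and carries the complex to endosomes. There proteases such as cathepsin S trim the invariant chain to a short remnant, and DM exchanges that remnant for a peptide while DO restrains DM. CIITA, a coactivator that does not itself bind DNA, switches on these genes through factors that sit on an X box and a Y box in their promoters. In bulk tumour RNA, fewer or more cells that make a transcript and less or more of it per cell cannot be told apart.

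RefSeq promoter windows (GRCm38.p6, 250 bases before to 50 after each start) were available for H2-Aa, H2-Eb1, H2-DMa, H2-DMb1, H2-DMb2, H2-Oa and Ctss, and for H2-Ob, the DO beta gene. The stretches below are shown because each holds a match to a motif searched for in these windows. Whether the matches switch these genes on together was not tested. The letters searched, on both strands, were TGATTGG for the Y box, AACNNATGATG for the X box, TGACGTCA for a cyclic AMP response element and GAAANNGAAA for an interferon response element. They were settled after the windows had been read, so their presence in these genes is a description. Capitals mark the matches, and all stretches run 5′ to 3′ on the strand of the gene.
H2-Aa (chr17:34287861-34287918, minus strand): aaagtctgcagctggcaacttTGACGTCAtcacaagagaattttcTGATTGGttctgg
H2-Eb1 (chr17:34305761-34305818, plus strand): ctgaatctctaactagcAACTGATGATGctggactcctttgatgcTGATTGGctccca
H2-DMb1 (chr17:34153083-34153140, plus strand): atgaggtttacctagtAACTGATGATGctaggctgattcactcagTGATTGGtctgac
H2-DMb2 (chr17:34145112-34145169, plus strand): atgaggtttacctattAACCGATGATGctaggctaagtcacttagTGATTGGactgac
H2-Oa (chr17:34092289-34092346, plus strand): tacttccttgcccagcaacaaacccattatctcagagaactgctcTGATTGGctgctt
H2-Ob (chr17:34238801-34238858, plus strand): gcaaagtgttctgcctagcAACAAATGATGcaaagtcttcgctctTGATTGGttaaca
Ctss (chr3:95526745-95526794, plus strand): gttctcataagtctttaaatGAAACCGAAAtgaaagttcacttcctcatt

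The Y letters began 45 bases before the RefSeq start in H2-Oa, 50 in H2-Aa, 59 in H2-Ob, 61 in H2-Eb1, 63 in H2-DMb1 and 92 in H2-DMb2. The X letters lay upstream of them, with 17 bases between the motifs in H2-Eb1, 18 in H2-DMb1, 18 in H2-DMb2 and 15 in H2-Ob. The exact X letters were not found in H2-Aa or H2-Oa, and a search for fixed letters would miss a variant X box. In H2-Aa the cyclic AMP element letters lay upstream of the Y letters and did not overlap them. The Ctss window held the interferon response letters, which began 21 bases before the start, and neither box. The windows of the H2-DMa RefSeq starts held none of the 4 motifs. These windows and the stretches of H2-DMb1 and H2-DMb2 lie inside the gene spans given below. Those spans are from GENCODE M21 and begin further upstream. Among all 32851 mouse windows, 7.82% held the Y letters, 0.137% the X letters, 1.79% the cyclic AMP element and 3.44% the interferon element. Only 9 windows (0.0274%), of 7 genes, held both X and Y letters: H2-Eb1, H2-DMb1, H2-DMb2, H2-Ob, Gm38969, Nubp2 and Spsb3.

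Per kilobase of exon the genes differed widely in level. Lengths were the union of all annotated exons, 3798 bases for H2-Aa, 3448 for H2-DMa and 1679 for Cd74. The order below depends on these lengths, and the length of the transcripts present was not measured. Cd74, the invariant chain, stood first among the 10, with 6078 normalized counts per kilobase in KO and 6297 in WT. Ctss followed with 5036 in KO and 3937 in WT, and H2-Aa with 4096 in KO and 2617 in WT. Next came the beta chains, H2-Ab1 at 2382 in KO and 1937 in WT and H2-Eb1 at 2181 in KO and 1692 in WT. The DM genes were far below, H2-DMb1 at 623.8 in KO and 442.9 in WT, H2-DMb2 at 310.6 in KO and 233.9 in WT, and H2-DMa at 267.2 in KO and 237.2 in WT. Ciita, the coactivator, had 99.99 normalized counts per kilobase in KO and 79.59 in WT. H2-Oa was last with 6.78 in KO and 7.68 in WT. In both groups the libraries of neighbours in this order overlapped between Cd74 and Ctss, between Ctss and H2-Aa, between H2-Ab1 and H2-Eb1 and between H2-DMb2 and H2-DMa. Those of H2-Aa and H2-Ab1 were apart in KO and overlapped in WT, and all other neighbours were apart in both groups.

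**Figure D1:**
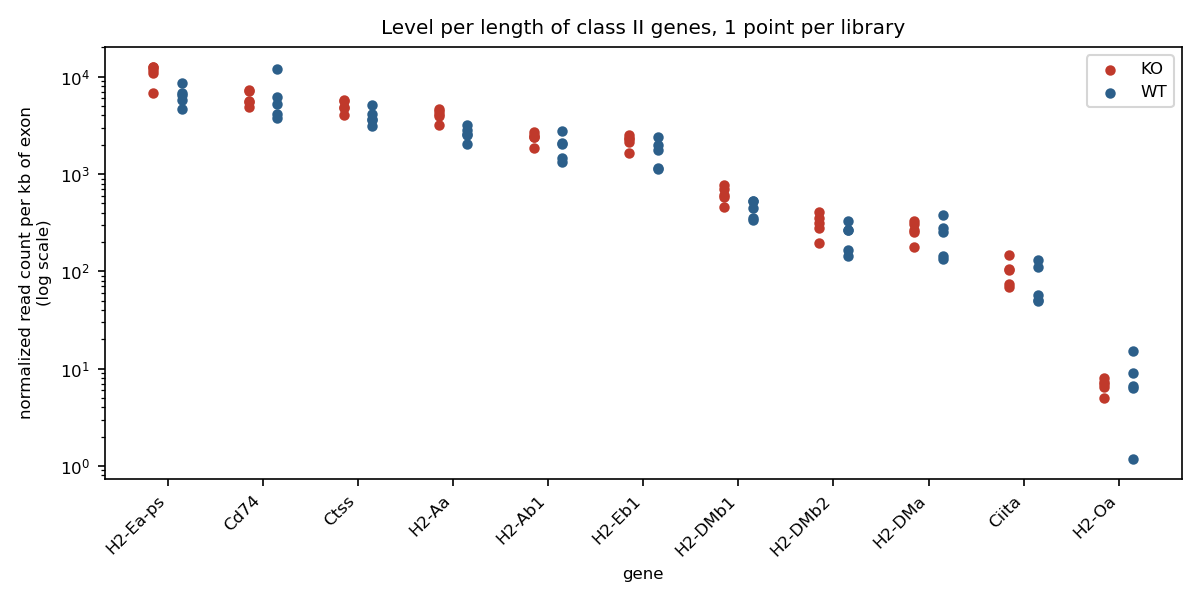
Level of each class II gene and of H2-Ea-ps, as normalized counts per kilobase of exon on a log axis, for the 5 KO libraries and, beside them, the 5 WT libraries. Each point is 1 library. Beside H2-Ea-ps, Cd74 has the highest and H2-Oa the lowest group mean in both groups.

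On the test across all genes, no member differed between KO and WT after adjustment, while all 10 had a fitted log2 difference above 0. The test was limma on log2 values with 1 added to the normalized count, and p-values were adjusted by Benjamini-Hochberg over 17975 genes. It called 0 genes higher in KO (0%) and 1 gene lower (0.00556%). Of all genes tested, 49% had a difference above 0. The median difference was 0.38 over the 10 genes, against -0.01 over all genes tested. With edgeR and DESeq2 the difference was above 0 for 8 of the 10, all but H2-Oa and Cd74. The members were read from the same libraries, so they are not 10 separate observations. At an unadjusted p under 0.05 there were 507 genes higher in KO and 659 lower, and 2.82% of genes tested were higher at that level. Among the members these were 2 of 10, H2-Aa and H2-DMb1. At the same level, the GC and length correction gave 6 of 10 members beside 5.41% of genes higher in KO. Sample weights gave 10 of 10 beside 9.57%. The weights were 5.43 for WT1 and 0.379 to 0.798 for the other WT libraries. WT1 was among the lowest 3 libraries for all 10 members, so the weighted WT level rests mostly on WT1. H2-Aa was also the only member whose KO libraries all stood above the WT libraries, which held for 0.684% of genes tested.

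**Figure D2:**
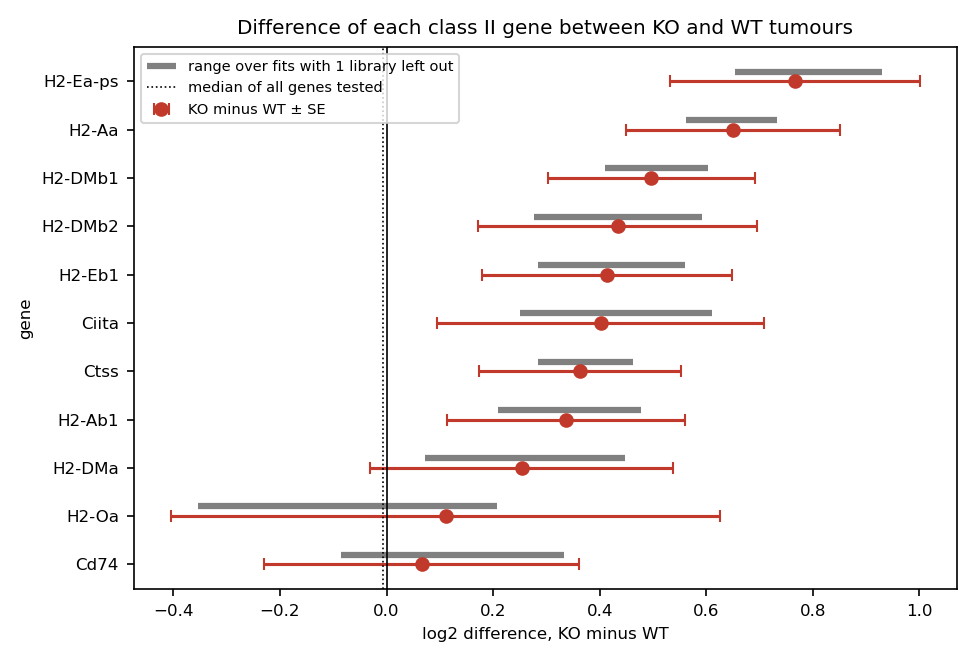
Log2 difference, KO minus WT, of the 10 class II genes and of H2-Ea-ps, with the SE of the fit, and the range over fits that leave out 1 library in grey. The dotted line is the median of all genes tested. H2-Ea-ps and H2-Aa have the largest differences, at 0.77 and 0.65, and Cd74 the smallest, at 0.07.

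H2-Aa encodes the alpha chain of I-A, the main class II molecule of the mouse (chr17:34282744-34287823, minus strand). It had 12263, 17060, 17596, 15149 and 15707 normalized counts in KO1 to KO5, against 7684, 12006, 10703, 9748 and 9555 in WT1 to WT5. The groups do not overlap, but KO1 and WT2 lie close to each other, and WT1 is the lowest of the 10. The means were 15555 ± 2089 in KO and 9939 ± 1591 in WT (± SD, n = 5 per group), a fold of 1.56 between the means. The log2 difference was 0.65 ± 0.20 (SE; limma adjusted p = 0.567). DESeq2 on the recovered reads called H2-Aa higher in KO (adjusted p = 0.0336), as it did 0.145% of genes tested. limma with sample weights did so too (adjusted p = 0.0175), along with H2-Ab1, H2-Eb1 and H2-DMb1, at a share of 1.3% of genes tested. In that fit the WT level rests mostly on WT1, which had a weight of 5.43. Over all 26 alternatives the adjusted p of H2-Aa ran from 0.0175 to 0.9995, and edgeR called 0 members.

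H2-Ab1 encodes the beta chain that pairs with H2-Aa (chr17:34257689-34269419, plus strand). Its normalized counts were 4703, 6983, 6247, 6177 and 6475 in KO1 to KO5, against 3378, 5272, 5371, 7081 and 3770 in WT1 to WT5. WT4 is the highest library of all 10, so the groups overlap, and the spread was wider in WT. The log2 difference was 0.34 ± 0.22 (limma adjusted p = 0.879).

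H2-Eb1, the beta chain of the second class II molecule, I-E (chr17:34305867-34316674, plus strand), had 3165, 4578, 4900, 4113 and 4442 normalized counts in KO1 to KO5, against 2193, 3435, 3838, 4720 and 2263 in WT1 to WT5. Its pattern over libraries was that of H2-Ab1, with WT4 high and WT1 and WT5 low. The log2 levels of H2-Eb1 and H2-Ab1 had a Pearson r of 0.977 over the 10 libraries, the highest of any member pair, given as a description. The H2-Eb1 difference was 0.41 ± 0.24 on the log2 scale (limma adjusted p = 0.844).

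**Figure D3:**
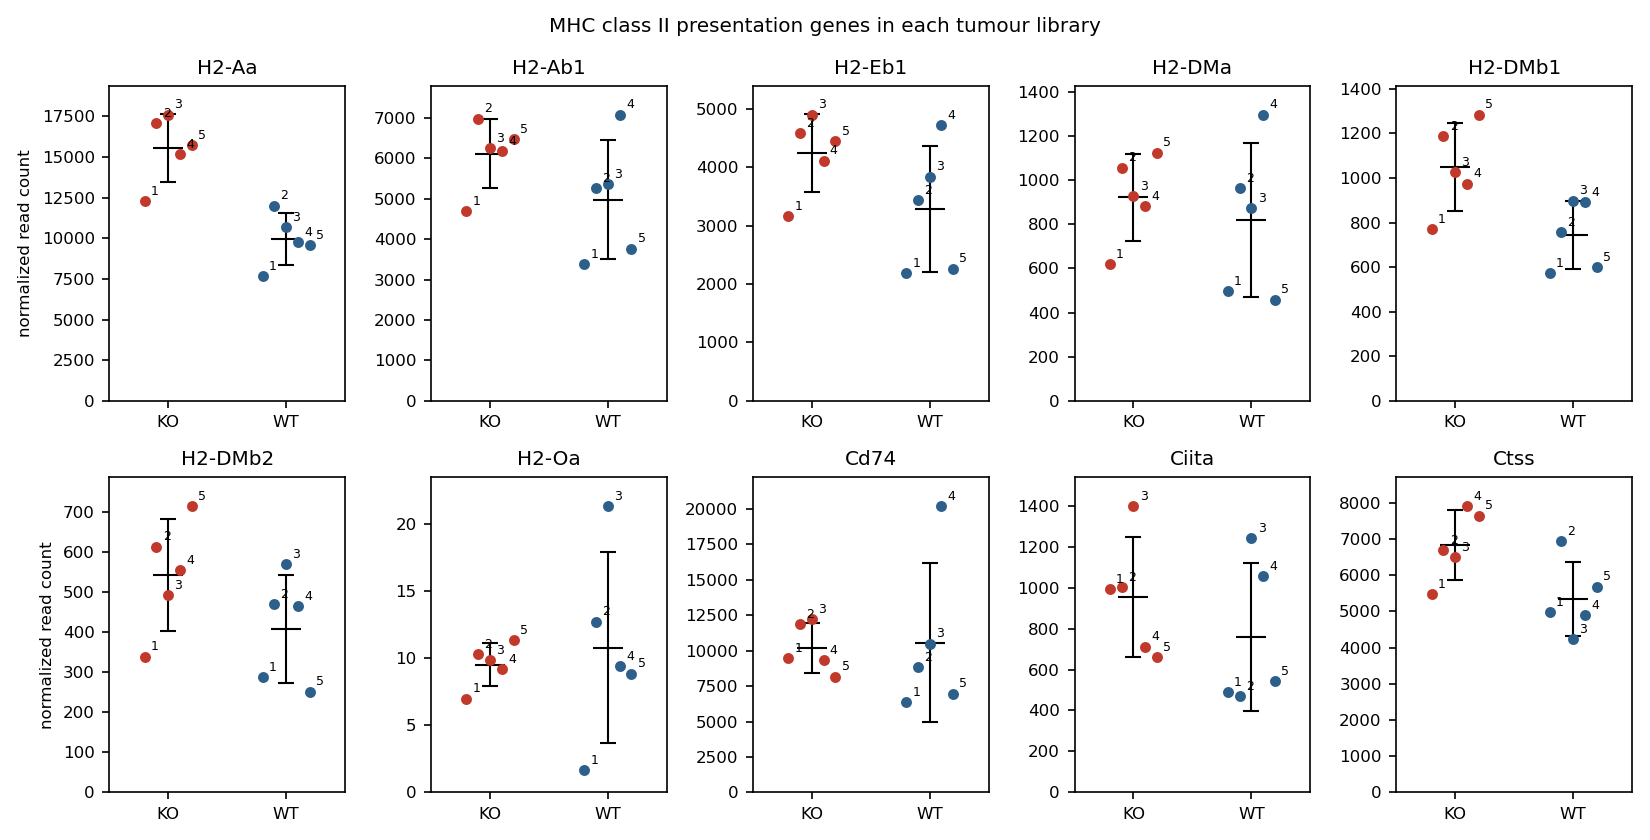
Normalized counts of each class II gene by library, KO libraries left and WT libraries right in each panel, with group means as lines and SD as bars (n = 5 each). H2-Aa is the panel in which KO and WT libraries do not overlap, and WT4 is the highest library for H2-Ab1, H2-DMa and Cd74.

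The partner of H2-Eb1, the E alpha chain, is annotated as a polymorphic pseudogene under the symbol H2-Ea-ps (chr17:34341959-34344645, minus strand). The reference genome comes from C57BL/6, whose haplotype does not make this chain, whereas BALB/c mice do. H2-Ea-ps had 7065, 13170, 11319, 12290 and 13159 normalized counts in KO1 to KO5, against 4800, 8853, 6998, 6043 and 6652 in WT1 to WT5. Only KO1 lies within the WT range, below WT2. Its log2 difference of 0.77 ± 0.23 was above that of every member (limma adjusted p = 0.555). The other locus of the class II list with a row, H2-Ob, averaged 11.3 ± 3.64 normalized counts over the KO libraries and 10.04 ± 5.19 over the WT libraries, and H2-Eb2 had no row. Class II genes are among the most variable between mouse strains, and how reads from BALB/c alleles aligned to the C57BL/6 sequence was not tested.

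The chains of a pair were not in the same ratio in every library. H2-Aa over H2-Ab1, a ratio of normalized counts, was 2.61, 2.44, 2.82, 2.45 and 2.43 in KO1 to KO5, against 2.27, 2.28, 1.99, 1.38 and 2.54 in WT1 to WT5. H2-Ea-ps over H2-Eb1 ran from 2.23 to 2.99 in KO and from 1.28 to 2.94 in WT, with WT4 again the lowest. In WT4 both beta chains were the highest of the WT libraries, while H2-Aa was at the WT median and H2-Ea-ps was above WT1 only. The GC content of the longest transcript is 46.5% for H2-Aa and 47.0% for H2-Ea-ps, against 57.3% for H2-Ab1 and 51.8% for H2-Eb1. Across all genes, the deviation of WT4 from the mean of the libraries had a correlation of 0.521 with GC content, the highest of the 10, and that of WT5 was the lowest at -0.403. After removal of GC and length trends from each library, the log2 ratio of H2-Aa over H2-Ab1 ran from 1.06 to 1.58 in KO and from 0.90 in WT4 to 1.48 in WT2, compared with 0.46 in WT4 before.

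DM is the dimer that loads peptide, with H2-DMa for its alpha chain and the neighbouring copies H2-DMb1 and H2-DMb2 for beta chains. H2-DMb1 (chr17:34153072-34160230, plus strand) had 770, 1187, 1026, 975 and 1284 normalized counts in KO1 to KO5, against 574, 759, 898, 891 and 602 in WT1 to WT5. Only KO1 lies within the WT range. The means were 1049 ± 199 in KO and 745 ± 154 in WT (± SD, n = 5 per group), and the log2 difference was 0.50 ± 0.19 (limma adjusted p = 0.706). H2-DMb2 (chr17:34143307-34151555, plus strand) ran from 338 to 714 normalized counts in KO and from 251 to 570 in WT, with a log2 difference of 0.43 ± 0.26 (limma adjusted p = 0.866). H2-DMa (chr17:34119541-34139101, plus strand) ran from 618 to 1124 in KO and from 459 to 1296 in WT, where WT4 was the highest library. Its log2 difference was 0.25 ± 0.28 (limma adjusted p = 0.950).

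The longest coding transcripts of H2-DMb1 and H2-DMb2, of 1404 and 1483 bases, were 87.3% identical over 1157 aligned columns, with a longest identical run of 221 bases. Reads from such runs could have been split between the copies, so each copy's own level is uncertain. Their ratio stayed within 1.76 to 2.28 in KO and 1.58 to 2.39 in WT. H2-DMa shares 360 exonic bases with Brd2 on the opposite strand, and without a stated strand those reads cannot be assigned. Brd2, a chromatin reader of the bromodomain family, had a log2 difference of -0.01 ± 0.18, whose sign changed in 7 alternatives.

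DO, the restraint on DM, is made mostly by B cells. H2-Oa (chr17:34092340-34095234, plus strand) was close to the limit of detection, with 2 to 22 reads a library. It had 6.99, 10.3, 9.84, 9.20 and 11.3 normalized counts in KO1 to KO5, against 1.66, 12.7, 21.4, 9.41 and 8.86 in WT1 to WT5. WT1 is below the 2.49 normalized counts that 3 reads are worth in that library, and WT3 is the highest of the 10. The mean was lower in KO, at 9.54 ± 1.63, than in WT, at 10.8 ± 7.15, while the log2 difference was 0.11 ± 0.52 (limma adjusted p = 0.983). With sample weights, which put the WT level mostly on WT1, the log2 difference of H2-Oa was 1.31 (limma adjusted p = 0.186). Its exons overlap those of an antisense transcript, BC051537, by 321 bases.

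Cd74 (chr18:60803848-60812652, plus strand) encodes the invariant chain. It had 9457, 11850, 12217, 9334 and 8168 normalized counts in KO1 to KO5, against 6346, 8860, 10490, 20192 and 6972 in WT1 to WT5. WT4 is far above the other 9 libraries, and the WT SD of 5619 is larger than the KO SD of 1748. The mean was lower in KO, at 10205, than in WT, at 10572, while the log2 difference was 0.07 ± 0.30 (limma adjusted p = 0.983). Without WT4 the log2 difference of Cd74 was 0.33, and without WT1 it was -0.08, so its sign rested on single libraries. Cd74 over H2-Aa was 0.771, 0.695, 0.694, 0.616 and 0.520 in KO1 to KO5, against 0.826, 0.738, 0.980, 2.07 and 0.730 in WT1 to WT5, a ratio of normalized counts without length scaling that was above 1 in WT4 alone. Per kilobase Cd74 was above H2-Aa in 10 of 10 libraries, by a ratio of 1.18 to 1.74 in KO and 1.65 to 4.69 in WT, the highest in WT4. That order rests on the annotated exon lengths, 3798 bases for H2-Aa and 1679 for Cd74. After the GC and length correction the log2 of the ratio without length scaling was still above 0 only in WT4, at 0.74, against -0.96 to -0.10 in KO and -0.68 to -0.06 in the other WT libraries.

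Ctss (chr3:95526786-95556403, plus strand) encodes cathepsin S, the protease that trims the invariant chain in dendritic cells and B cells. It had 5481, 6679, 6488, 7903 and 7643 normalized counts in KO1 to KO5, against 4973, 6938, 4239, 4901 and 5679 in WT1 to WT5. KO2 to KO5 lie above 4 of the 5 WT libraries, and WT2 is among the KO values. The log2 difference was 0.36 ± 0.19 (limma adjusted p = 0.800).

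Ciita (chr16:10480059-10528418, plus strand) had 993, 1003, 1398, 712 and 661 normalized counts in KO1 to KO5, against 488, 469, 1240, 1055 and 543 in WT1 to WT5. Both groups span a wide range and overlap, with KO3 and WT3 the highest library of each. The means were 953 ± 294 in KO and 759 ± 362 in WT (± SD, n = 5 per group), and the log2 difference was 0.40 ± 0.31 (limma adjusted p = 0.894). Ciita shares 329 exonic bases with Dexi on the opposite strand, whose log2 difference was 0.42 ± 0.25.

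The level of Ciita was set against that of each other member over the 10 libraries, 9 relations in all, with two-sided permutation tests and Benjamini-Hochberg adjustment. No Pearson r passed the adjustment. Cd74 had the highest, with r = 0.712 (permutation p = 0.0143, adjusted p = 0.129) and Spearman rho = 0.867 (permutation p = 0.00201, adjusted p = 0.0181). H2-Eb1 had r = 0.668 (permutation p = 0.0359, adjusted p = 0.162) and rho = 0.709 (permutation p = 0.0264, adjusted p = 0.119). The other class II chains and DM and DO genes had r between 0.401 and 0.571, and their adjusted p for r was 0.262 or 0.276. Ctss had r = -0.275 (permutation p = 0.432, adjusted p = 0.432) and rho = -0.358 (permutation p = 0.311, adjusted p = 0.401).

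Without WT2 and WT1, the libraries farthest from the median of Ciita, Cd74 had r = 0.660 (permutation p = 0.0662, adjusted p = 0.554) and rho = 0.881 (permutation p = 0.00688, adjusted p = 0.0619), so its rank relation no longer passed. In deviations from the group means, r was 0.740 for Cd74 (permutation p = 0.00767, adjusted p = 0.0690) and -0.726 for Ctss (permutation p = 0.0185, adjusted p = 0.0833). The permutations ran freely across KO and WT, while the deviations were centred within each group. Permutation p-values in deviations may therefore be too small. With the GC and length correction r was 0.758 for H2-Ab1 (permutation p = 0.00956, adjusted p = 0.0587), 0.730 for H2-Eb1, 0.724 for H2-DMb1, 0.675 for H2-Aa, 0.557 for Cd74 and -0.04 for Ctss. The rank relation of Cd74 did not pass in either setting, with rho of 0.794 in deviations (permutation p = 0.00898, adjusted p = 0.0808) and 0.624 after the correction (permutation p = 0.0609, adjusted p = 0.110). The libraries with the RESUB prefix and those without it number 5 each, and no correlation was computed over so few. All members were read from the same libraries, whose depth and GC trends they share.

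**Figure D4:**
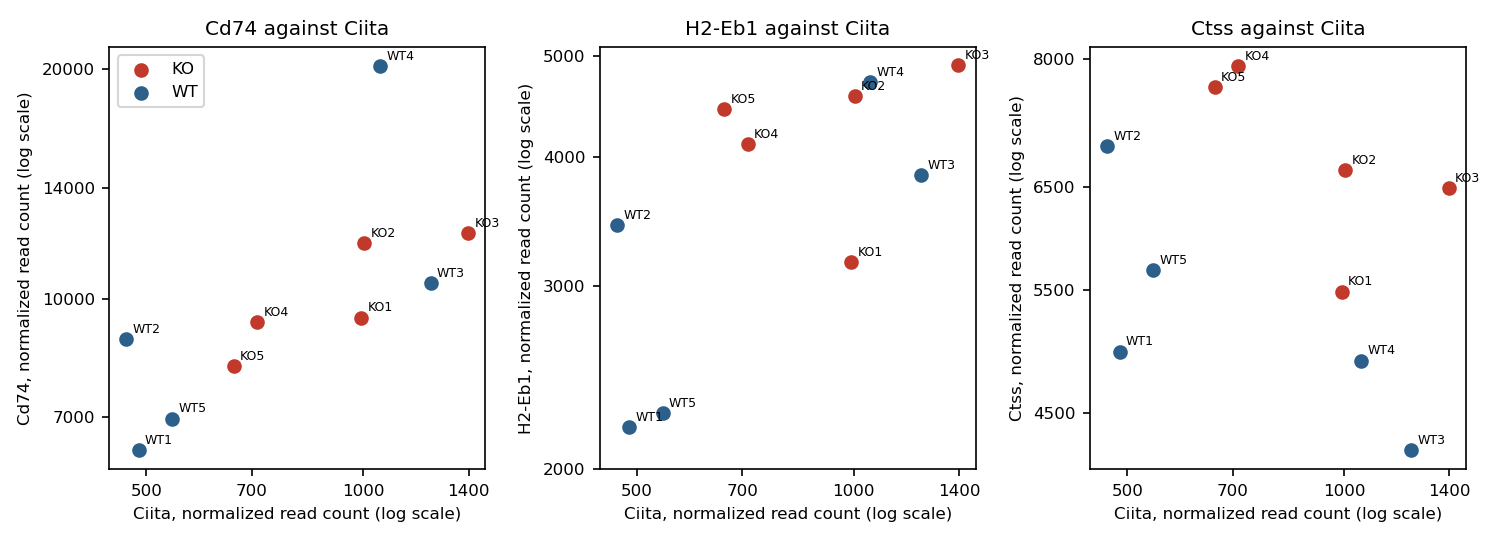
Normalized counts of Cd74, H2-Eb1 and Ctss against those of Ciita, on log axes, with 1 point a library (KO red, WT blue). Cd74 and H2-Eb1 are higher where Ciita is higher, with r of 0.712 and 0.668, and Ctss is not, with r of -0.275.

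Some libraries were low or high for most members. WT1 was the lowest library for 6 of the 10 genes and among the lowest 3 for all 10, and WT5 was among the lowest 3 for 9. KO2 and KO5 were each among the highest 3 libraries for 7 genes, KO3 was the highest for 3, and WT4 was the highest for 3. KO1 was among the lowest 3 for 5 genes. The coefficient of variation, the SD as a percent of the mean, was larger in WT for all 10 genes, from 13.4% in KO and 16.01% in WT for H2-Aa to 17.1% in KO and 53.1% in WT for Cd74 and 17.1% in KO and 66.1% in WT for H2-Oa. This difference in spread was not tested, and the share of all genes with a larger value in WT was not computed. It therefore cannot be called particular to the members. Among cell markers, Ptprc had 5.72% in KO and 18.9% in WT, Col1a1 34.8% and 75.5%, and Pdgfra, the other way, 21.4% and 14.7%. The summed values of the 10 genes made up 0.314%, 0.401%, 0.382%, 0.328% and 0.330% of all normalized counts in KO1 to KO5, against 0.211%, 0.278%, 0.335%, 0.349% and 0.230% in WT1 to WT5, and the groups overlap.

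**Figure D5:**
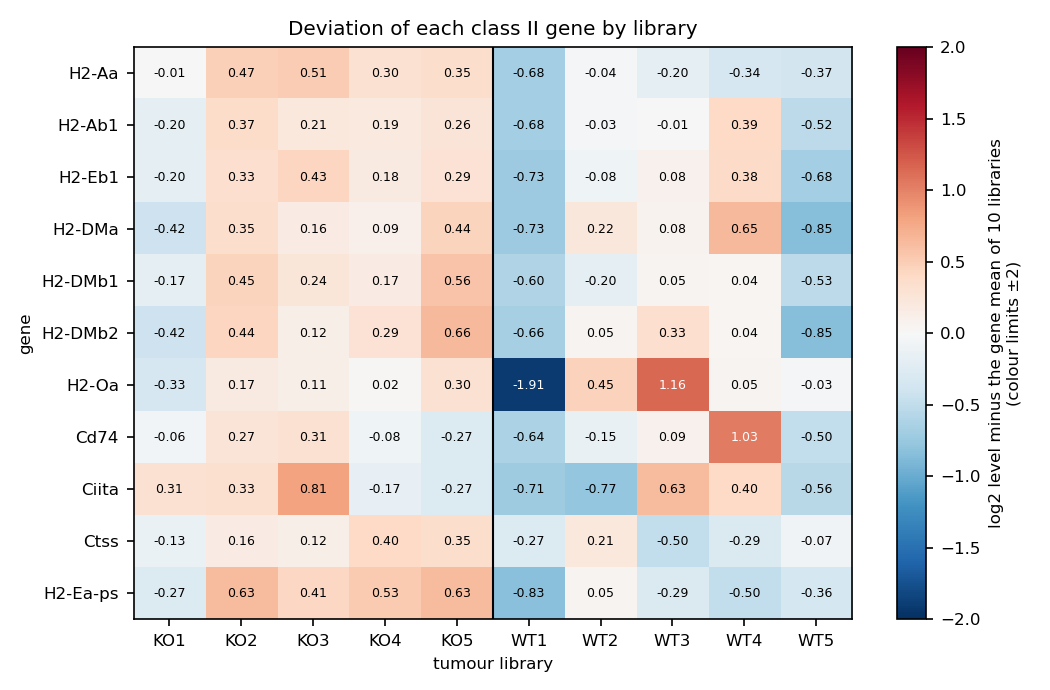
Deviation of each library, KO columns left and WT columns right, from the mean log2 level of each class II gene and of H2-Ea-ps (rows), in log2 units. WT1 is below the mean in every row, and WT4 is above it for H2-Ab1, H2-Eb1, H2-DMa and Cd74 and below it for H2-Aa.

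The RESUB prefix splits the libraries nearly as the groups do, with 1 KO and 4 WT libraries carrying it and 4 KO and 1 WT without it. Within the prefixed libraries the log2 difference of H2-Aa was 0.67, and within the others 0.69, each resting on 1 library in 1 group that was taken to vary like the rest. H2-DMb1 had 0.74 and 0.70 in the same fits. Cd74 had -0.35 with the prefix and 0.61 without it, and Ciita -0.16 and 0.88. With the prefix as a term in the fit, the log2 difference was 0.68 for H2-Aa and 0.72 for H2-DMb1, with adjusted p of 0.592 and 0.546 (limma). That term moved other members further, to 0.64 for H2-DMa, 0.83 for H2-DMb2 and 0.62 for H2-Eb1, with limma adjusted p of 0.672, 0.551 and 0.654. In the libraries without the prefix H2-DMa had 0.90 and H2-DMb2 0.95, and in the prefixed ones 0.39 and 0.71. Without WT2, WT3 and WT5, the libraries with the most skin RNA, H2-Aa had 0.83 (limma adjusted p = 0.648).

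Markers of the cells that can make class II molecules were also present and varied between libraries, and their part in the member values was not tested. Ptprc, the pan-leukocyte marker CD45, had 3091 to 3567 normalized counts in KO and 1843 to 3164 in WT (log2 difference 0.40, limma adjusted p = 0.750). The lowest of the 10 libraries for Ptprc was WT4, which was the highest for H2-Ab1, H2-DMa and Cd74. H2-Aa over Ptprc was 3.47, 4.84, 4.93, 4.37 and 5.08 in KO1 to KO5, against 3.03, 4.19, 3.80, 5.29 and 3.02 in WT1 to WT5, so the groups overlapped on that scale. The 9 macrophage markers were all present, with 8 above 0 in log2 difference, a median of 0.19 and sums of 16705 to 23064 in KO and 10481 to 24126 in WT. H2-Aa over the macrophage sum ran from 0.657 to 1.01 in KO and from 0.490 to 1.02 in WT. The 9 dendritic cell markers had a median of 0.10 and sums of 2110 to 4270 in KO and 2515 to 6562 in WT, the highest in WT4, the library with the highest Cd74. Fscn1 alone made up 5405 of the 6562 in WT4. Without Fscn1 the sums ran from 665 to 1376 in KO and from 756 to 1157 in WT, with WT4 below KO1 and KO3. The B cell markers Cd79b and Cd22 had sums of 41.0 to 104 in KO and 31.6 to 76.8 in WT, and Ms4a1, Cd79a, Pax5 and Blk had no row in the table.

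All 6 T cell markers had a log2 difference above 0 (median 0.71, sums 287 to 742 in KO and 188 to 477 in WT), as did all 5 neutrophil markers (median 0.94, sums 870 to 2408 in KO and 470 to 2636 in WT). The 5 carcinoma epithelium markers, Epcam, Krt8, Krt18, Krt19 and Cdh1, were all below 0 (median -0.74, sums 11268 to 15573 in KO and 15243 to 24984 in WT). They were present in every library, as the tumour label requires.

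The other genes of the pathway were taken from lists, and none was called in limma in either direction. Of 9 genes of endosomal processing, 8 had a log2 difference above 0 and the median was 0.16. Ctsl, cathepsin L, had the largest, averaging 10239 ± 3277 normalized counts over the KO libraries and 6021 ± 1561 over the WT libraries (± SD, n = 5 per group) and a log2 difference of 0.75 ± 0.25 (limma adjusted p = 0.617). Ctsd, cathepsin D, followed by p with 0.26 ± 0.18. In the list of the promoter factors that recruit CIITA, 3 of 7 were above 0 and 4 below, with a median of -0.04. Rfxap, a subunit of the RFX complex on the X box, averaged 99.1 ± 27.4 normalized counts over the KO libraries and 129 ± 19.6 over the WT libraries (log2 difference -0.41 ± 0.23, limma adjusted p = 0.838). Nfyc, a subunit of the factor on the Y box, had a log2 difference of -0.08 ± 0.14.

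Interferon gamma is the main inducer of CIITA outside professional presenting cells. Of 7 genes of its signalling, 4 had a log2 difference above 0 and 3 below, with a median of 0.23. Ifng itself, the cytokine, was low, with 12.6, 33.8, 8.44, 28.6 and 46.3 normalized counts in KO1 to KO5, against 8.31, 10.9, 25.3, 7.96 and 9.97 in WT1 to WT5. KO2, KO4 and KO5 were above every WT library, and KO1 and KO3 were within the WT range (log2 difference 0.89 ± 0.48, limma adjusted p = 0.823). KO5 had the highest Ifng and the lowest Ciita of the KO libraries, and WT3 had the highest of both among the WT libraries. Irf1, a factor induced by interferon gamma that acts on the Ciita promoter, averaged 2239 ± 158 normalized counts over the KO libraries and 1904 ± 496 over the WT libraries (log2 difference 0.27 ± 0.19, limma adjusted p = 0.888).

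The genes that regulate class II at the cell surface, March1, March8 and Cd83, were all above 0, with a median of 0.23. Cd83, which protects class II from the ubiquitin ligase March1, averaged 220 ± 29.9 normalized counts over the KO libraries and 162.8 ± 65.1 over the WT libraries (log2 difference 0.52 ± 0.27, limma adjusted p = 0.800). March1 itself had a log2 difference of 0.23 ± 0.19. Of 4 partners of class II and of the invariant chain, 3 were above 0. Lag3, an inhibitory receptor of T cells that binds class II, averaged 71.8 ± 31.3 normalized counts over the KO libraries and 49.2 ± 23.9 over the WT libraries (log2 difference 0.58 ± 0.39, limma adjusted p = 0.879). Cd44, the co-receptor of the invariant chain at the surface, had a log2 difference of -0.13.

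Costimulation is the second signal that presenting cells give beside class II. Cd86 averaged 400 ± 99.4 normalized counts over the KO libraries and 234 ± 84.1 over the WT libraries, with a log2 difference of 0.81 ± 0.26 (limma adjusted p = 0.589). Cd80, its relative, had 113 ± 21.5 in KO and 67.7 ± 25.7 in WT, with a log2 difference of 0.79 ± 0.27 (limma adjusted p = 0.661). The KO and WT libraries overlapped for both genes. Within the libraries with the RESUB prefix the log2 difference was 1.35 for Cd86 and 1.18 for Cd80. In those without it the values were 0.30 and 0.33, and each of these fits rests on 1 library in 1 group. With the prefix as a term in the fit they were 0.83 and 0.76. The other 2 genes of the list, Cd40 and Icosl, had means of 181 and 116 normalized counts in KO and 186 and 116 in WT.

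The H2 members, 7 of the 10, lie within 252.3 kilobases of chromosome 17, between 34092340 and 34344645, and 15 genes of that interval were tested. Of the 8 others, 7 had a log2 difference above 0, with a median of 0.26. These include the class I peptide transporter genes Tap1 (0.28) and Tap2 (0.20) and the immunoproteasome genes Psmb9 (0.24) and Psmb8 (0.16), which also respond to interferon gamma. None of them passed the adjusted threshold in limma.

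The genes whose pattern was most like the mean log2 level of H2-Aa, H2-Ab1, H2-Eb1 and Cd74 were sought over the 10 libraries after removal of the group means. They were Bcl3 (r = 0.960), Wdtc1 (0.959), Zbtb42 (0.953), Ctdsp2 (0.949), Elmod3 (0.946), Rara (0.944), Sdc3 (0.942) and Abcd4 (0.937). The median GC content of their longest transcripts was 58.5%, against 49.0% over all genes tested. After the GC and length correction, Elmod3 ranked 1 with r = 0.949 and Sdc3 ranked 3, while Zbtb42 ranked 97 and Abcd4 ranked 1600. The order therefore differed after GC and length trends were removed together, and the likeness is a description of these 10 libraries.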

How the data were processed

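Libraries were made from column-purified tumour RNA after depletion of ribosomal RNA, per the labels' protocols. The authors deposited 1 table of signal values, which are read counts per gene divided by a size factor, for 10 libraries and 18047 genes. Dividing a library's values by its smallest step gave whole reads for 100% of values (tolerance 0.0001 of a read). The submitters' processing notes name bcl2fastq 2.17 and the GRCm38 build. How reads were aligned and counted, and whether strand or molecular identifiers were used, is not given in the sources used here. Of the IDs, 17953 had a symbol in GENCODE M21 and 94 had none.

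The comparison of KO and WT used limma 3.58.1 in R 4.3.3, with its trend option, on log2 values with a pseudocount of 1. Genes with a mean under 10 were left out (72, leaving 17975), and adjusted p-values (Benjamini-Hochberg) were held to 0.05. On this scale the change of a low gene is understated. edgeR 4.0.16 and DESeq2 1.42.0 on the recovered reads were 2 of 26 alternatives. Correlations used 100000 permutations. The limma step was run on simulated counts with 200 known changes, each larger than the difference of any member. The simulation held no GC trends between libraries, so it does not show how the step performs for the members. WT2 and WT5, which share a library number, had a chi-square per degree of freedom of 142, within the 38.2 to 176 of all WT pairs. That value cannot tell whether they came from the same tumour, since sections of the same tumour could also differ. They were kept apart. With their mean in place of both, the log2 difference of H2-Aa was 0.68 (limma adjusted p = 0.470). The GC and length correction removed splines of both from each library and was chosen after seeing the data. Python 3.11.15 and matplotlib 3.10.9 drew the figures.

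The members and lists were chosen with earlier results of these data known. The genes named are the 10 members, the genes of each pathway list with an unadjusted p under 0.05 or among its 2 lowest p, the coding genes that share exons with a member, and the 8 genes most like 4 core members. Cell markers, genes of the class II interval and the remaining costimulation genes are given beside them. A check of the targeted gene and 1 cell marker are not reported here.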

Additional observations from a re-analysis of the deposited data

How the results depend on the processing

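The count of genes past the threshold was 1 and became 121 with DESeq2, 408 with sample weights and 26 in the libraries without the prefix. It became 0 in limma in the prefixed libraries (678 genes at an unadjusted p under 0.05), with the mean of the pair numbered 170 (1289) and without WT2, WT3 and WT5 (1207), and ran from 0 to 3 with 1 library left out. It stayed at 1 in edgeR and with the replicate number as a block. Same-numbered libraries had deviations with correlations of 0.02, 0.10, 0.52, 0.03 and -0.23, and 2 of 10 libraries matched best with their own number. These values do not show a pairing by number, and they cannot exclude one, since tissue content and GC trends also enter the deviations. The block gave H2-Aa 0.65 (limma adjusted p = 0.490) and changed no call of a member.

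Calls were gained by H2-Aa with DESeq2 (0.65, adjusted p = 0.0336) and with limma sample weights by H2-Aa (0.92), H2-Ab1 (0.74), H2-Eb1 (0.80) and H2-DMb1 (0.77), beside percents called higher of 0.145% with DESeq2 and 1.3% with weights. The weights ran from 5.43 for WT1 to 0.379 for WT2 and 0.384 for WT4, so the weighted WT level rests mostly on WT1. H2-Ea-ps, Ctsl, Cd86 and Cd80 also passed with weights. With 1 library left out, the ranges were 0.56 to 0.73 for H2-Aa, 0.41 to 0.60 for H2-DMb1, 0.21 to 0.48 for H2-Ab1, 0.28 to 0.56 for H2-Eb1, 0.07 to 0.45 for H2-DMa, 0.28 to 0.59 for H2-DMb2, 0.25 to 0.61 for Ciita and 0.28 to 0.46 for Ctss, all without a call. The members' median was 0.28 without WT1 and 0.29 without WT5.

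Signs turned for H2-Oa (-0.15 in edgeR, -0.16 in DESeq2, -0.35 to 0.21 with 1 library left out), for Cd74 (-0.0452 in edgeR, -0.052 in DESeq2, -0.35 in prefixed libraries, -0.01 with the pair mean, -0.17 without WT2, WT3 and WT5, -0.0846 to 0.33 with 1 library left out) and for Ciita (-0.16 in prefixed libraries). They also turned for H2-Ob (-0.0775 to 0.46 with 1 library left out, -0.38 without the prefix), Nfyc (0.072, prefixed), March1 (-0.0088, without the prefix), Lag3 (-0.0458, prefixed) and Cd44 (-0.32 to 0.0027 with 1 library left out). Brd2 had 0.0387 with upper-quartile scaling, 0.17 with weights, 0.14 without the prefix, 0.18 with the GC and length correction and -0.068 to 0.12 with 1 library left out. The causes were not tested. Upper-quartile scaling moved the median of all genes from -0.01 to 0.04 and the GC and length correction to 0.04. H2-Oa, at 2 to 22 reads a library, was under the minimum in 5 alternatives and could not be fitted there. Lower limits of depth were 2.62 to 4.22 normalized counts in KO and 2.172 to 3.32 in WT for 3 reads.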
